A study of Schizosaccharomyces pombe with 4 samples.

Results

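The mitochondrial ribosomal protein genes of fission yeast are taken here as the protein-coding genes outside the mitochondrial chromosome whose name begins with mrp or rsm. This rule uses names only, and it found 54 genes among the 5118 nuclear protein-coding genes of the deposited table. By their RefSeq product, 32 of them encode proteins of the large (54S) subunit and 21 encode proteins of the small (37S) subunit. The remaining gene, *rsm1*, goes against the label: its product is the zinc finger RNA export factor Rsm1, and it is kept in the counts because the rule selects it. The names and the products do not always go together, since *mrpl1601* and *mrpl1602* encode different proteins (uL16m and uL6m). A further 5 rows of the table start with the same letters but are not protein-coding. They are *mrp1*, the RNA of RNase MRP, and 4 antisense RNAs, and they were left out. RefSeq gives a mitochondrial ribosomal product to 76 nuclear genes, so that 23 of them, such as *img1* and *nam9*, lie outside the rule because of their name.

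The libraries were made by native elongating transcript sequencing (NET-Seq), in which RNAPII is immunoprecipitated through a Flag tag on its subunit Rpb3 and the RNA held by the polymerase is sequenced from its 3′ end. All 4 libraries come from the haploid *S. pombe* strain YAM2507 (rpb3-flag *exo2*Δ), grown exponentially in rich medium, and thus all of them lack Exo2, the cytoplasmic 5′-3′ exoribonuclease that degrades the antisense transcripts called XUTs. For each of 2 biological replicates there is a nascent RNA library (IP) and a control library made from the same biological sample without the purification of RNAPII (input). WT libraries were not used here, so no value below compares *exo2*Δ with WT. Densities are normalized reads per nt of gene length.

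Mitochondrial ribosomes translate the few proteins encoded by the mitochondrial genome, most of them subunits of the respiratory chain. The mitochondrial ribosomal RNAs are made in the organelle, whereas nearly all of the proteins are encoded in the nucleus, synthesized in the cytosol and imported. The names of the products tell their origin: uL and uS mark proteins shared with all ribosomes, bL and bS those shared with bacteria only, and mL and mS those found only in mitochondria. In budding yeast, mRNAs of many such genes carry a binding site of the RNA-binding protein Puf3 in their 3′ UTR. In fission yeast, most genes of the cytosolic ribosomal proteins carry the HomolD box in their promoter.

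The IP libraries hold 3338808 and 6962801 reads over 9139 features, coding segments aside, and the input libraries hold 10172688 and 9114952. Of the normalized reads, 73.9% and 74.99% lie on tRNA genes in the input, against 7.18% and 6.80% in the IP. The main coding exon of *exo2*, the deleted gene, had 44 and 86 reads in the IP, which give IP densities of 0.0113 and 0.0104 normalized reads per nt and input densities of 0.00212 and 0.00210, below the 0.0247 and 0.0223 (IP) and 0.00378 and 0.00398 (input) of its whole gene. Its other coding exons, of 15 and 68 nt, had 2 and 7 and 11 and 16 IP reads, at densities of 0.133 and 0.221 and of 0.162 and 0.112. The extent of the deletion is not given in the sources used here. The 54 genes had a median of 103 and 206.5 reads in IP replicates 1 and 2 and of 61 and 51 reads in input replicates 1 and 2. The lowest counts were 18, 54, 12 and 11 reads, so no gene was without reads in any library and all 54 passed the filter on low values. No window of 50 nt of any of the 54 genes occurs elsewhere on chromosomes I to III of the reference genome. The counts follow the strand, since the 539 nt RNA *mrps8-antisense-1*, which lies within *mrps8*, had 0 and 1 IP reads where *mrps8* had 166 and 298.

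The mitochondrial ribosomal protein genes were transcribed near the level of the median protein-coding gene and within a narrower range than all protein-coding genes. Their median IP density was 0.0805 ± 0.000958 normalized reads per nt (SD of the medians of the replicates, n = 2), against 0.0852 ± 0.00220 for all protein-coding genes. Within replicates 1 and 2 the medians of the 54 were 0.0841 and 0.0828, so that the median over the means of the replicates lies below both. Their 25th and 75th percentiles were 0.0698 and 0.122, a 1.74-fold range, where those of all protein-coding genes were 0.0473 and 0.152, a 3.21-fold range. From the lowest to the highest gene the IP density spans 7.47-fold. Of the 54 genes, 25 lay above the median protein-coding gene and 46 lay between the 25th and 75th percentiles of all protein-coding genes. The SD of the log2 IP density over the genes was 0.59, against 1.79 for all protein-coding genes. A range narrower than that of all genes is not particular to the group. Between the 25th and 75th percentiles it was 1.93-fold for the 23 mitochondrial ribosomal proteins of other names. For the 131 cytosolic ribosomal protein genes it was 2.08-fold.

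The gene with the highest IP density was *mrpl4* (SPCC4G3.06c, 520 nt), which encodes uL29m, a protein that in bacteria lies near the exit of the peptide tunnel. Its IP densities were 0.196 and 0.183 in replicates 1 and 2, and its input densities were 0.0281 and 0.0206. Its mean IP density of 0.190 ± 0.00917 (SD, n = 2) was higher than that of 81.3% of the protein-coding genes. Thus even the gene with the highest density over the whole gene did not reach the median IP density of the cytosolic ribosomal proteins, which was 0.994. The lowest of the cytosolic genes, at 0.0682, lay below *mrpl4*. Second in the group was *mrpl32* (bL32m, which in budding yeast is matured by the mitochondrial m-AAA protease), with IP densities of 0.180 and 0.171. The small subunit gene *mrp51* (bS1m) had 0.160 and 0.159. The large subunit gene *mrpl33* (uL30m) had 0.151 and 0.155. The small subunit gene *mrp10* (mS37), whose budding yeast counterpart is a twin CX9C protein, had 0.148 and 0.152. In the IP replicates *mrpl4* and *mrpl32* overlap neither each other nor the next 3 genes, whereas *mrpl33* and *mrp10* overlap.

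At the other end, *mrpl39* (SPBC4F6.08c, bL33m) had IP densities of 0.0210 and 0.0298 from 18 and 54 reads. The 95% Poisson intervals of these counts are 10.7 to 28.4 and 40.6 to 70.5 reads, and like all such intervals they cover counting error only. It was the gene whose IP replicates differed most, by 0.51 on the log2 scale. Next came *rsm1*, the RNA export factor, with 0.0367 and 0.0396. The small subunit gene *rsm27* (mS33) had 0.0437 and 0.0456. The large subunit genes *mrpl24* (bL28m) with 0.0444 and 0.0487, and *mrpl1602* (uL6m) with 0.0506 and 0.0473, complete the 5 lowest. Among these 5 genes, *mrpl39* and *rsm1* are separate from the gene above them in both IP replicates, *rsm27* overlaps *mrpl24*, and *mrpl24* overlaps *mrpl1602*.

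**Figure D1:**
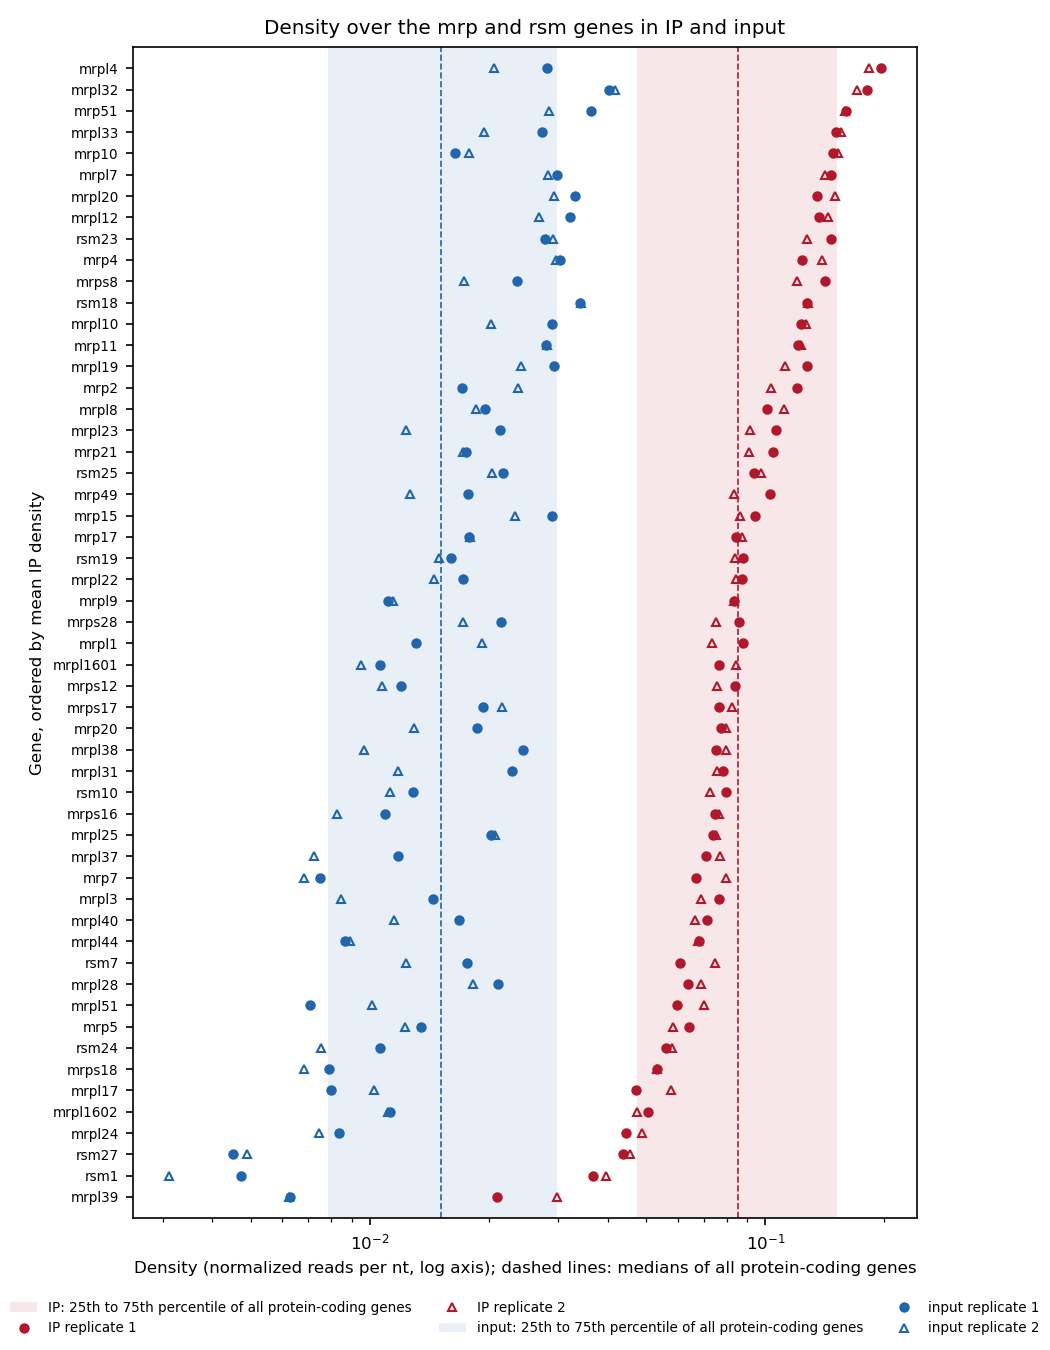
Density (normalized reads per nt, log axis) of each of the 54 genes in IP replicates 1 and 2 (red) and input replicates 1 and 2 (blue), ordered by the mean IP density. Shaded bands span the 25th to 75th percentile of all protein-coding genes and dashed lines are their medians; the red points run from 0.0210 (*mrpl39*) to 0.196 (*mrpl4*) and 46 of the 54 genes have a mean inside the red band.

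In the input the group also lay near the median protein-coding gene, but slightly above it rather than below. The median input density was 0.0170 ± 0.00207 normalized reads per nt (SD of the medians of the replicates, n = 2), against 0.0151 ± 0.00155 for all protein-coding genes and 0.361 ± 0.0238 for the cytosolic ribosomal proteins. Of the 54 genes, 33 were above the median protein-coding gene and 44 were between its 25th and 75th percentiles. The highest input density was that of *mrpl32*, at 0.0403 and 0.0417, followed by *rsm18* (bS18m) at 0.0340 and 0.0342. Then came *mrp51* at 0.0362 and 0.0284, *mrpl20* (mL58) at 0.0331 and 0.0293, and *mrp4* (uS2m) at 0.0303 and 0.0295. Both replicates of *mrpl32* lie above all other genes of the group, and those of *rsm18*, *mrpl20* and *mrp4* lie within the range of *mrp51*. The lowest were *rsm1* at 0.00474 and 0.00311 and *rsm27* at 0.00450 and 0.00490. Above them were *mrpl39* at 0.00630 and 0.00623, *mrp7* (bL27m) at 0.00748 and 0.00681, and *mrps18*, which RefSeq calls a putative S18 protein, at 0.00790 and 0.00683. The values of *mrp7* and *mrps18* overlap, whereas *rsm1* and *rsm27* overlap each other and lie below the other 52 genes. The input replicates differed most for *mrpl38*, a putative large subunit protein, with 48 and 17 reads and densities of 0.0244 and 0.00970.

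Across the 54 genes the log2 IP density and the log2 input density had a Pearson's r of 0.855, and r between replicates was 0.969 for the IP and 0.895 for the input. These are descriptions across genes, which share libraries and gene lengths. In such bulk samples, fewer cells that transcribe a gene and less RNA per cell cannot be told apart.

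**Figure D2:**
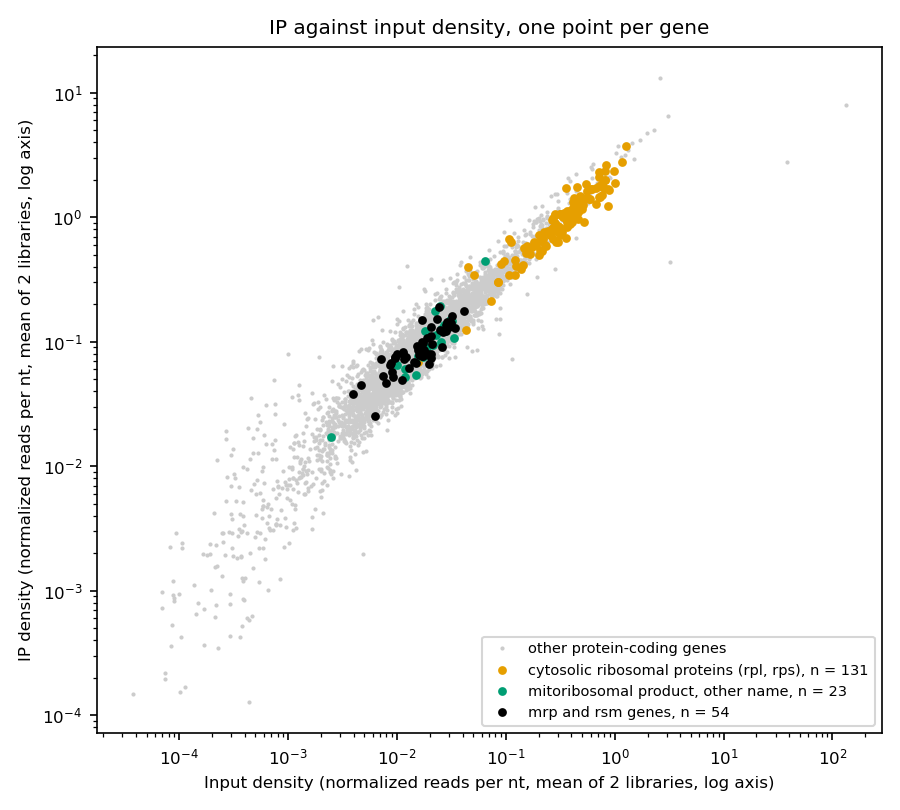
IP density against input density (means of 2 libraries, normalized reads per nt, both axes log), with 1 point per protein-coding gene that has reads in both. The 54 mrp and rsm genes (black) lie in the middle of the cloud together with the 23 mitochondrial ribosomal proteins of other names (green), and the 131 genes of the cytosolic ribosomal proteins (orange) lie towards its upper end, with medians of 0.994 in the IP and 0.361 in the input.

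To ask which of these genes have more or less nascent RNA than their level in the input would give, IP and input were compared in limma after the median protein-coding gene of each library had been set to 0. Of the 54 genes, 5 were higher and 4 were lower in the IP at an adjusted p of 0.05 (limma with trend, Benjamini-Hochberg over the 8651 features tested), and 45 passed in neither direction. Among all 5032 protein-coding genes tested, 513 (10.2%) were higher and 1079 (21.4%) were lower. The share of higher genes among the 54, 9.26%, is near this background, and that of lower genes, 7.41%, is below it. With a pseudocount 10 times larger, 11 of the 54 (20.4%) were lower, against 29.4% of all protein-coding genes in that fit. The median log2 IP over input was -0.10 ± 0.015 (SD of the medians of the replicates, n = 2) for the 54 genes and -0.10 ± 0.011 for all protein-coding genes. Within replicates 1 and 2 the median of the 54 was -0.05 and -0.03, so that the median over fitted values lies outside both. The median of all protein-coding genes was -0.09 and -0.11 within the replicates, below that of the 54 in each. Centring removes a shift of 2.48 on the log2 scale. On the deposited scale, without centring, all 54 genes and 4974 of the 5032 protein-coding genes (98.8%) were called higher in the IP and no member lower, with a median log2 of 2.38 for the 54 and 2.39 for all, so that higher and lower mean relative to the median protein-coding gene. Since input and IP of 1 replicate come from the same biological sample, the fit was also made with the replicate as a block, which called 7 genes higher and 8 lower, the same 9 among them. Leaving out IP replicate 1 leaves 3 higher and 1 lower, leaving out IP replicate 2 leaves 0 higher (4 at an unadjusted p of 0.05) and 3 lower, and leaving out input replicate 1 gives 6 higher and 8 lower. DESeq2 and limma without trend called 0 in each direction, where 4 and 7 genes were higher and 1 and 5 lower at an unadjusted p of 0.05.

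The 3 genes with the highest ratio were *mrp7*, *rsm1* and *rsm27*. The large subunit gene *mrp7* (SPAP19A11.05c) encodes bL27m, whose bacterial counterpart reaches towards the peptidyl transferase centre. It had 91 and 229 reads in the IP and 32 and 26 in the input, and its centred log2 IP over input was 0.73 in replicate 1 and 0.93 in replicate 2. The fitted value was 0.83 ± 0.19 (SE, adjusted p = 0.0113). For *rsm1*, with 101 and 230 reads in the IP and 41 and 24 in the input, it was 0.79 ± 0.20 (SE, adjusted p = 0.0161). For *rsm27*, with 108 and 238 reads in the IP and 35 and 34 in the input, it was 0.73 ± 0.19 (SE, adjusted p = 0.0176). All 3 have a mean IP density below the median protein-coding gene and an input density among the 5 lowest of the group, and without IP replicate 2 none of the 3 passed the threshold. The large subunit gene *mrpl1601* (uL16m, which in bacteria lies at the entry site of the tRNA) had densities of 0.0763 and 0.0844 in the IP and 0.0106 and 0.00950 in the input, at 0.49 ± 0.15 (SE, adjusted p = 0.0417). The remaining gene called higher, *mrps16*, was not among those the rule names and was added after its values were seen: it had 187 and 403 reads in the IP and 86 and 58 in the input, at 0.49 ± 0.13 (SE, adjusted p = 0.0241). The fourth highest ratio, that of *mrp10*, was 0.61 ± 0.21 (SE) and did not pass (adjusted p = 0.0589), but passed with the replicate block (adjusted p = 0.0396).

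The 4 genes that were lower were *mrpl28*, *mrp15*, *mrpl25* and *rsm18*. The large subunit gene *mrpl28* (SPAC4F8.05c, mL40) had 46 and 105 reads in the IP and 48 and 37 in the input, with a log2 of -0.82 and -0.68 in the replicates. Its fitted value was -0.75 ± 0.20 (SE, adjusted p = 0.0224). For *mrp15* (mL57, which in budding yeast has a fold related to RNase III), with 85 and 164 reads in the IP and 82 and 59 in the input, it was -0.70 ± 0.16 (SE, adjusted p = 0.00921). The mean IP densities of these 2 genes, 0.0663 and 0.0901, lie on either side of the median of the group, and their mean input densities, 0.0197 and 0.0261, lie above it. For *mrpl25* (mL59), with 67 and 144 reads in the IP and 58 and 53 in the input, it was -0.64 ± 0.18 (SE, adjusted p = 0.0263). For *rsm18* (bS18m, a protein of the small subunit platform), with 104 and 220 reads in the IP and 87 and 78 in the input, it was -0.59 ± 0.15 (SE, adjusted p = 0.0170). The small subunit gene *mrps17* (uS17m) came next at -0.55 ± 0.20 (SE), which did not pass (adjusted p = 0.0697) but did with the block (adjusted p = 0.0382). Of the 9 genes called, *mrp15* was called in each fit that left out 1 library, whereas *mrpl1601*, *mrpl25* and *mrps16* were each lost in 3 of these 4 fits. All values of these lower genes turn positive on the deposited scale (1.73 for *mrpl28*, 1.78 for *mrp15*, 1.84 for *mrpl25*, 1.90 for *rsm18*).

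**Figure D3:**
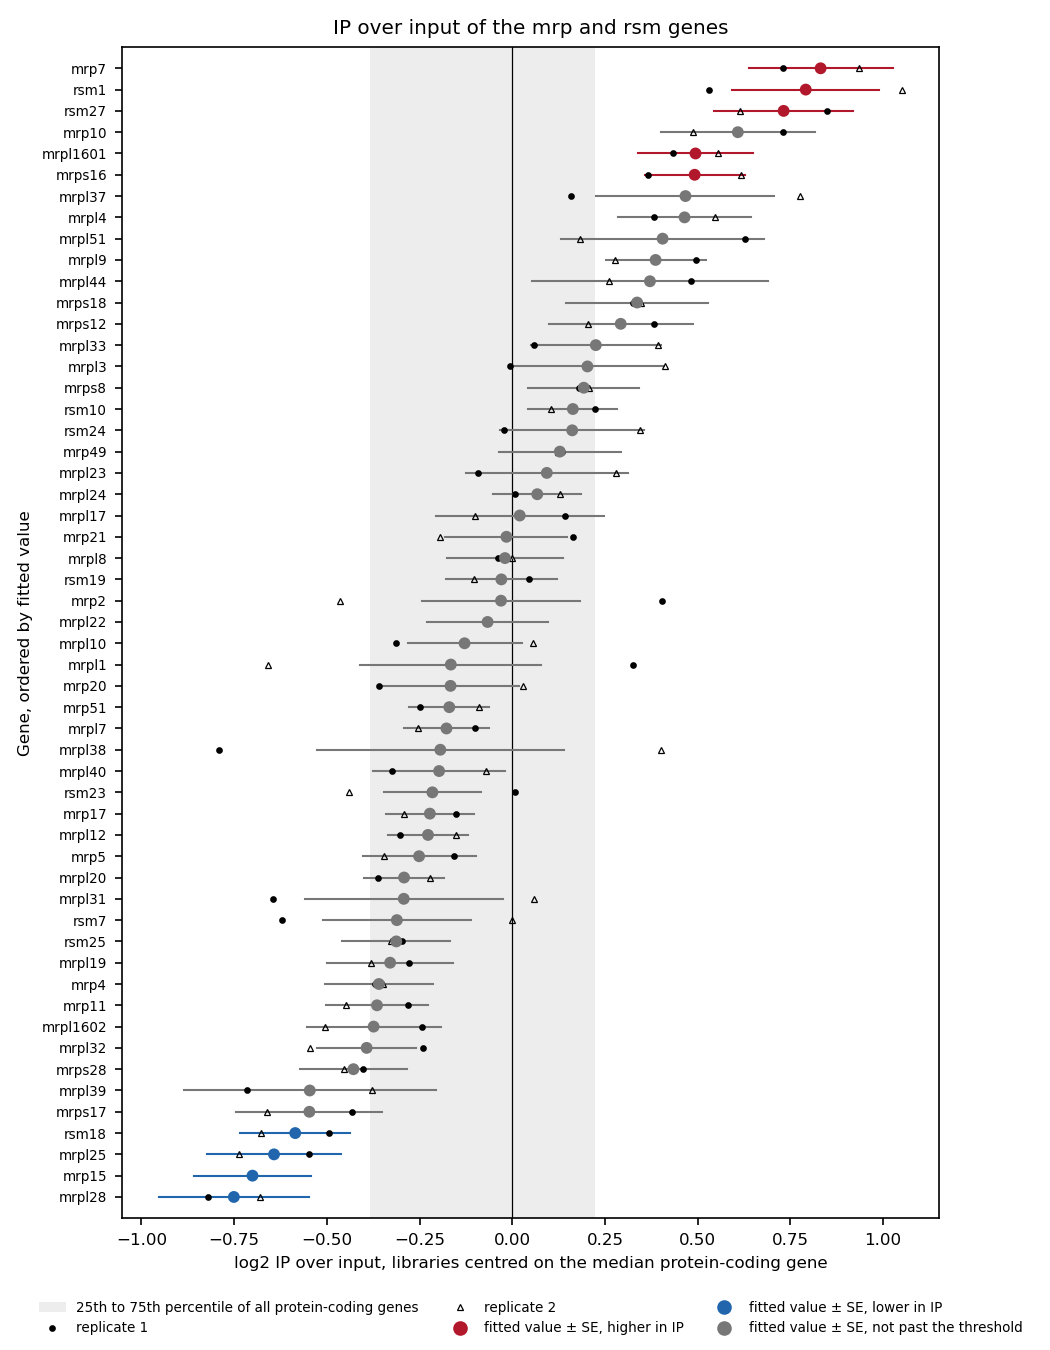
Log2 IP over input of each of the 54 genes, relative to the median protein-coding gene of each library: fitted value ± SE (large points and bars, red higher, blue lower, grey not past the adjusted p of 0.05) and the ratio within replicate 1 and replicate 2 (small points). The fitted values run from -0.75 (*mrpl28*) to 0.83 (*mrp7*), and the replicates of 41 genes lie on the same side of 0.

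The replicates place 41 of the 54 genes on the same side of 0, and the ratios of the 2 replicates had a Pearson's r of 0.635 across the genes (0.715 across all protein-coding genes). The large and small subunit genes had medians of -0.15 ± 0.078 and -0.03 ± 0.079 (SD of the medians of the replicates, n = 2), and their order changed between the replicates, with -0.10 and 0.01 in replicate 1 and 0.01 and -0.10 in replicate 2. Of the 32 large subunit genes 2 were higher and 3 lower, and of the 21 small subunit genes 2 were higher and 1 lower. Their median IP densities were 0.0804 and 0.0859.

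The first letters of a product name give its relatives: u for proteins shared by all ribosomes, b for those shared with bacteria and m for those of mitochondria, followed by L or S for the subunit. The IP densities of the 6 classes are given as a description, and differences between classes were not tested. The 14 genes of uL proteins, which include the tunnel exit protein uL29m and the A site protein uL16m, had IP densities from 0.0489 (*mrpl1602*) to 0.190 (*mrpl4*), with a median of 0.0923 ± 0.00641 normalized reads per nt (SD of the medians of the replicates, n = 2). The 6 genes of bL proteins ran from 0.0254 (*mrpl39*) to 0.176 (*mrpl32*) around 0.0898 ± 0.00823. The 11 genes of mL proteins ran from 0.0523 (*mrpl17*) to 0.143 (*mrpl20*) around 0.0739 ± 0.000966.

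In the small subunit, the 10 genes of uS proteins ran from 0.0612 (*mrp5*) to 0.131 (*mrp4*) around 0.0801 ± 0.00419, and their centred log2 IP over input lay between -0.55 for *mrps17* and 0.29 for *mrps12*. The 4 genes of bS proteins had a median of 0.113 ± 0.00467, the highest of the 6 classes, and ran from 0.0859 (*mrp17*) to 0.160 (*mrp51*). The 5 genes of mS proteins ran from 0.0446 (*rsm27*) to 0.150 (*mrp10*) around 0.0956 ± 0.00242. The ranges of the 6 classes overlap. The remaining 4 genes, *rsm1*, *mrps16*, *mrps18* and *mrpl38*, have a product without such class letters, and their IP densities lay between 0.0381 and 0.0774.

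The genes of this group are short and have much non-coding sequence. Their median length was 1135 nt against 1887.5 nt for all protein-coding genes, and their median coding length was 511.5 nt against 1137 nt. In the 53 genes with at least 100 nt outside the coding segments and 10 reads in each library, UTRs and introns took 58.4% of the length, against 35.5% over 4505 protein-coding genes so chosen. They took 45.6% and 44.8% of the reads of these 53 genes in the IP, against 27.3% and 27.4% over the 4505 genes. In the input they took 39.0% and 42.4%, against 48.9% and 53.5%. These shares pool the reads over genes, so that genes with many reads weigh most. The lower share in the input was limited to genes with an intron, at 42.9% and 50.2% in the group against 63.4% and 67.8%. In genes without an intron it was 36.4% and 37.1% in the group, against 35.0% and 38.7%. In the IP the density was higher in the coding segments than in the rest of the gene for 45 and 47 of the 53 genes in replicates 1 and 2, and in the input for 50 in each. This is not particular to the group, since it held for 3755 and 3873 of the 4505 genes in the IP and for 4191 and 4052 in the input. Counted on coding segments only, the median IP density of the 54 genes was 0.110 against 0.101 for all protein-coding genes, so that the group lies slightly above the median protein-coding gene on this measure and slightly below it on whole genes.

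This changes the place of single genes. The gene *mrpl24* is the longest, with 4980 nt of which 531 are coding, and its annotated transcript contains a separate unit of 912 nt on the same strand with an IP density of 0.0104. Its coding segment had IP densities of 0.132 and 0.143, against 0.0341 and 0.0367 in the rest. It thus ranked 51st of 54 by whole gene and 18th by coding segment. In *rsm27*, the coding segments had 0.124 and 0.126 and the rest 0.0333 and 0.0352, and in *mrps16* the coding segments had 0.196 and 0.235 and the rest 0.0589 and 0.0556. These 2 genes rank 23rd and 2nd by coding segment, against 52nd and 36th by whole gene. The highest by coding segment was *mrpl12*, at 0.220 and 0.231 in the IP, which ranked 8th by whole gene. The gene *mrpl4*, 1st by whole gene, ranked 5th by coding segment, at 0.216 and 0.196. Counted on coding segments only, with no test, the centred log2 IP over input was -0.01 for *rsm27* and 0.04 for *mrps16*, both called higher on the whole gene. In the rest of *rsm27* lay 73 and 163 reads in the IP and 14 and 17 in the input. By the same count *mrp7* was at 0.62, *rsm1* at 0.48 and *mrpl1601* at 0.22, each below its value on the whole gene, and the lower genes *mrpl28*, *mrp15*, *mrpl25* and *rsm18* were at -0.81, -0.65, -0.71 and -0.78. The sign was the same by coding segments and by whole gene in 48 of the 54 genes.

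Many of these genes are overlapped by an annotated feature on the other strand. Of the 54 genes, 37 (68.5%, against 61.7% of all protein-coding genes) are overlapped by an antisense feature over 50 nt or more, 27 of them (50.0% of the 54, against 36.0%) by another protein-coding gene, and 5 lie entirely opposite a neighbouring gene or antisense RNA. Some of these features had almost no reads, such as *mrpl4-antisense-1* with 2 and 3 in the IP. An antisense XUT of at least 50 nt overlap was found at 8 genes (14.8%, against 21.2% of all protein-coding genes). At *mrpl33* the gene had IP densities of 0.151 and 0.155 and XUT0934 0.00518 and 0.00614. At *mrp10*, XUT1463 had 0.00315 and 0.00747 from 1 and 5 reads, and at *mrpl12* XUT0069 had 0.0109 and 0.0133. The mean IP density of the gene exceeded that of its XUT by 27.0-fold, 28.3-fold and 11.6-fold at these 3 loci, and by 6.33-fold at *mrpl1601*, 4.60-fold at *mrpl23* and 3.01-fold at *mrps17*. At *mrpl1*, gene and XUT1393 were at a similar level, with 0.0877 and 0.0731 for the gene and 0.0783 and 0.0689 for the XUT, only 188 nt of whose 3459 nt lie opposite the gene. The exception was *mrpl3* (mL44, which in budding yeast also has a fold related to RNase III), where XUT1235, 278 nt long and wholly opposite the gene, had IP densities of 0.0791 and 0.0886 from 22 and 52 reads, and the gene had 0.0764 and 0.0687. The XUT was thus above the whole gene in both replicates, by less in replicate 1 than the spread between the replicates of either. In the input the XUT had 0.00458 and 0.00385 and the gene 0.0145 and 0.00848. Over its coding segments only, *mrpl3* had IP densities of 0.0836 and 0.0744, above the XUT in replicate 1 and below it in replicate 2. The 8 genes had a median centred log2 IP over input of 0.15 ± 0.22 (SD of the medians of the replicates, n = 2) and the other 46 of -0.15 ± 0.012. Within replicates 1 and 2 the median of the 46 was -0.08 and -0.07, so that the median over fitted values lies outside both. The difference between the 8 and the 46 was not tested.

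**Figure D4:**
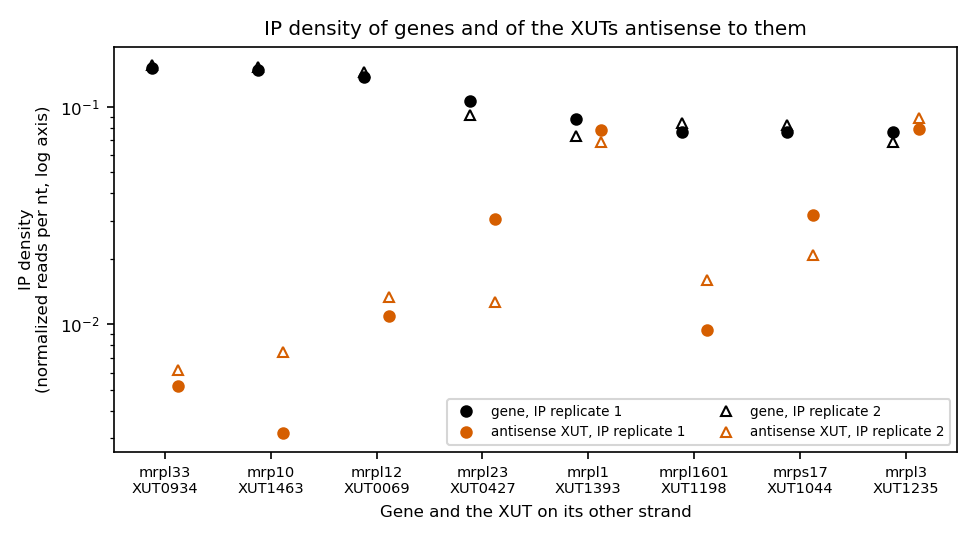
IP density (normalized reads per nt, log axis) of the 8 genes with an antisense XUT of at least 50 nt overlap (black) and of that XUT (orange), in replicates 1 and 2. The genes lie between 0.0687 and 0.155, and the XUT exceeds the density over the whole gene in both replicates only at *mrpl3*.

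The 250 bases before the annotated start of *mrp7* and *mrpl4* are shown because *mrp7* has the highest IP over input and *mrpl4* the highest IP density. They were read 5′ to 3′ on the strand of the gene from the reference genome (ASM294v3), whose chromosomes I to III hold the coding sequences of the table in place. Capitals mark TATAAA on either strand (TTTATA where it lies on the other strand).
*mrp7*, chrII:2862840-2863089, - strand: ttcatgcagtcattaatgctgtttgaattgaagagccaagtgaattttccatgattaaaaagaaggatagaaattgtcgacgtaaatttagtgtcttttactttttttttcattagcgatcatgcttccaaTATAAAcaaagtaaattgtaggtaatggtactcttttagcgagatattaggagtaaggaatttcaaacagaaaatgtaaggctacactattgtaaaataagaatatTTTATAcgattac
*mrpl4*, chrIII:461701-461950, + strand: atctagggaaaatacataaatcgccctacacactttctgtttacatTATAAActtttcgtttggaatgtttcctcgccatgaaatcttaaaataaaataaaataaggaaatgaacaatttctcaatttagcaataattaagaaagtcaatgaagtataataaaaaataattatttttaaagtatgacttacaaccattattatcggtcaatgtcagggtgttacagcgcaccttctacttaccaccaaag
The G+C content was 29.2% in each of these stretches. Over the 54 genes, TATAAA was found in the window from 250 bases before to 50 bases after the start, on either strand, in 28 (51.9%), against 50.0% of the windows of 5117 protein-coding genes. CCAAT, searched in the same way, was found in 20 (37.04%), against 40.8%. The shares of both are close to those of all genes.

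The HomolD box and the HomolE repeat of the cytosolic ribosomal protein promoters were searched for in the same windows. The HomolD letters CAGTCACA were in 0 of the 54 windows, in 73 of 131 windows of cytosolic ribosomal protein genes (55.7%) and in 2.48% of all. The HomolE letters ACCCTACC were in 2 of the 54 windows (3.70%), in 29.8% of those of the cytosolic ribosomal proteins and in 1.60% of all. The 2 matches, both in small subunit genes, are given with 8 bases on each side and the match in capitals. That of *mrp51* starts 7 bases after the first base of the annotated transcript, and that of *mrps17* starts 126 bases before its start.
*mrp51*, chrI:4113705-4113728, - strand: acatttaaACCCTACCctaactta
*mrps17*, chrII:1167470-1167493, - strand: acaaagtcACCCTACCataaagta
In the IP, *mrp51* is the third highest of the 54 genes and *mrps17*, at 0.0762 and 0.0824, is close to their median. The absence of a match says only that these letters are not in the window.

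Letters of the Puf3 type (TGTANATA, sense strand) were searched for in the annotated 3′ UTRs. They occur in 2 of the 52 genes with an annotated 3′ UTR (3.85%), against 10.1% of 4737 protein-coding genes. All matches of the group are shown, with 8 bases on each side, in 3′ UTRs of 1775 nt (*rsm10*) and 1240 nt (*mrpl20*).
*rsm10*, chrII:3871688-3871711, + strand: taacacatTGTAAATAgcaagacg
*mrpl20*, chrIII:822587-822610, + strand: ccttctcaTGTACATAtttccttt
*mrpl20*, chrIII:822747-822770, + strand: tacaatggTGTACATAattaattg
The densities of *rsm10* (uS10m) and *mrpl20* were 0.0761 and 0.143 in the IP and 0.0121 and 0.0312 in the input.

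A single pair of the 54 genes are direct neighbours. On chromosome I, *mrps12* (uS12m, the protein of the decoding centre to which streptomycin resistance mutations map in bacteria) and *mrpl28* are transcribed away from each other and 637 nt lie between them. Their IP densities were 0.0840 and 0.0755 for *mrps12* and 0.0637 and 0.0689 for *mrpl28*. Their inputs were 0.0120 and 0.0108 for *mrps12* and 0.0211 and 0.0183 for *mrpl28*. The values overlap in neither the IP, where *mrps12* was higher, nor the input, where *mrpl28* was higher. The centred log2 IP over input was 0.29 ± 0.19 (SE, adjusted p = 0.309, not past the threshold) for *mrps12* and -0.75 for *mrpl28*.

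Other genes of mitochondrial translation were described for comparison. The 23 mitochondrial ribosomal proteins of other names had a median IP density of 0.107 ± 0.00786 and a median centred log2 IP over input of -0.18 ± 0.035 (SD of the medians of the replicates, n = 2). Within replicates 1 and 2 this log2 median was -0.28 and -0.23, so that the median over fitted values lies outside both. Of these 23 genes, 3 passed the threshold, all lower, namely *img1* at -0.81, *nam9* at -0.52 and *snr1* at -0.62, and this share of 13.0% is below that of all protein-coding genes (21.4%). A list of mitochondrial translation and RNA factors holds 33 names, of which 29 were found and 26 remained after 3 whose product is another protein were left out. Their median IP density was 0.0516 ± 0.00652, with 1 gene higher (3.85%) and 6 lower (23.1%), the latter near the 21.4% of all protein-coding genes. Those lower include the elongation factors *tuf1* (-0.56) and *mef1* (-0.65), the mitochondrial RNA polymerase *rpo41* (-0.58) and the ribosome recycling factor *rrf1* (-1.26), and the gene that was higher is the pentatricopeptide repeat gene *ppr2* (1.69). A list of 11 other ribosomal names held 6 genes of the table, with *mba1* higher (0.50), to which RefSeq gives no ribosomal product, and 2 lower. For the 131 cytosolic ribosomal protein genes, 1 was higher and 123 were lower, with a median of -0.96 ± 0.040. The values of the lists stand side by side and the difference between them was not tested.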

How the data were processed

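NET-Seq libraries of IP and input were grouped by the labels, with 2 biological replicates each. The authors removed the 5′ adapter and mapped reads uniquely to the genome (ASM294v2) with Bowtie. The counting tool and the basis of the normalization factors are not given in the sources used here. For IP replicate 1 the deposited values are read counts. For the other 3 libraries they are a signal, namely reads multiplied by 1 factor per library, as is the deposited density (normalized reads per nt). Dividing by the value of 1 read (1, 0.474, 0.318 and 0.357 normalized reads in IP 1, IP 2, input 1 and input 2) gave whole reads for 100% of the values, within 0.001. The table has 19343 rows. The 10204 coding segments were used only for levels within genes, and 0 columns of per-sample values were left unmapped.

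IP and input were compared with limma 3.58.1 (R 4.3.3) with trend on log2(normalized reads + 0.318), where the pseudocount is the smallest positive value, which understates changes of genes with few reads. Libraries were centred on the median protein-coding gene, since the share of normalized reads on tRNA genes differs between IP and input. Features with a value above 0 in at least 2 libraries were tested (8651, of which 5032 protein-coding), with Benjamini-Hochberg adjustment and a threshold of 0.05. The labels state that IP and input of the same number share a biological sample, and their replicate differences correlated with r = 0.154 over 4633 genes. Count tests on the recovered reads were edgeR 4.0.16 (quasi-likelihood, TMM) and DESeq2 1.42.0. On 7097 features, edgeR called 649 protein-coding genes higher and 1063 lower, and 7 and 4 of the 54.

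Named are the 5 highest and 5 lowest genes by IP density, input density and IP over input, those whose IP density is below that of an antisense XUT, and those with the largest difference between replicates. Rules for genes without reads, with same-strand overlap over 50% of the gene or with near-identical copies named none. The genes and lists were chosen with earlier results of these data known. Products come from RefSeq (54 of 54 matched). Coordinates of the table were checked on the reference (ASM294v3): 5113 of 5119 coding sequences, and all 54 of the group, run from ATG to a stop codon. Alternatives were the deposited scale, pseudocounts 10 times smaller and larger, no filter and at least 10 reads in all 4 libraries, protein-coding genes only, no trend, the replicate block, the count tests, each library left out, coding segments only, means, and genes without same-strand gene overlap. Chosen after seeing the data were edgeR scaled on the median protein-coding gene, the group without *rsm1*, and the comparison with the 23 genes of other names.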

Additional observations from a re-analysis of the deposited data

Results flagged for a closer look

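The rows whose names start like those of the group but that are not protein-coding were outside the comparisons, and 3 of the 5 had more than 3 reads in each IP library and a higher density in the IP than in the input of both replicates. These densities are on the deposited scale, where 98.8% of the protein-coding genes tested were called higher in the IP. A higher density in the IP is thus not particular to these rows. For *mrp1*, the RNA of RNase MRP, the mean IP density was 5.84 ± 0.882 normalized reads per nt (SD, n = 2) and the mean input density 4.28 ± 0.627, so the 2 means differ by less than 2.48 on the log2 scale, the shift of the median protein-coding gene. For *mrps17-antisense-1* the mean IP density was 0.0238 ± 0.00437 from 16 and 26 reads, and 0.000899 ± 0.00127 in the input from 0 and 3 reads. For *rsm1-antisense-1* it was 0.00983 ± 0.00154 from 11 and 29 reads, and 0.000820 ± 0.000444 in the input from 2 and 4 reads. The genes opposite to the antisense RNAs are *mrps17* (mean IP density 0.0793) and *rsm1* (0.0381). The row *mrps17-antisense-1* shares nt with XUT1044, the XUT set against *mrps17* above, so that they are not separate observations. XUT1044 had 16 and 22 reads in the IP and 0 and 3 in the input.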

How the results depend on the processing

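Precision is limited by 2 replicates and by the input, where the 54 genes have medians of 61 and 51 reads. A fit without 1 library has a lone sample that is assumed to vary like the other group. Of 330 values of 22 named genes under the alternatives, 264 kept the side of the threshold, 28 lost and 26 gained the call. A sign change of a value called in neither the main fit nor the alternative was not counted apart and falls among the 264. The 12 values that changed sign and were called in either fit did so on the deposited scale: *mrp15* 1.78, *mrp4* 2.12, *mrp51* 2.31, *mrpl1602* 2.11, *mrpl20* 2.19, *mrpl25* 1.84, *mrpl28* 1.73, *mrpl32* 2.09, *mrpl38* 2.29, *mrpl39* 1.93, *mrps17* 1.93 and *rsm18* 1.90, all by construction, since no centre is subtracted. That scale called 54 members higher and 0 lower, 4974 protein-coding genes higher and 5 lower, all 26 translation factors and all 6 genes of the list of other names, and its median for the members was 2.38. Limma without trend called 0 members in each direction, 69 protein-coding genes higher and 181 lower, 1 translation factor, 0 genes of the other list and 78 cytosolic ribosomal proteins. DESeq2 called 0 members in each direction, 246 protein-coding genes higher and 580 lower, 4 translation factors and 1 gene of the other list. The cause was not tested. The pseudocount 10 times larger called 11 members lower. With the replicate block, 8 members were lower and 7 higher, and 6 members not called without it were called, while counts over all protein-coding genes (646 higher, 1260 lower) stayed within 1.5 times. All 9 called members were also called under the block, under edgeR and under each of the other pseudocounts and filters.

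Leaving out 1 library gave 0 to 7 members higher and 1 to 8 lower, 339 to 643 protein-coding genes higher and 913 to 1119 lower, 4 to 7 translation factors (against 7), and 1 to 4 of the other list (against 3). Leaving out 1 replicate gave medians of 0.0828 to 0.0841 for the IP density, 0.0148 to 0.0177 for the input density and -0.054 to -0.033 for the log2 ratio. Counted on coding segments, these medians were 0.110, 0.0236 and -0.13, where all protein-coding genes were at 0.101, 0.0187 and -0.11. The mean IP density was 0.0931 and the mean log2 ratio -0.029. Without members that share nt with another gene on the same strand, the medians were 0.0833 and -0.13, and without *rsm1* the median log2 ratio was -0.13.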
